A study of Mus musculus with 16 samples.

Results

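Cells of the mouse acute myeloid leukaemia line AML246 were compared 4 days after the withdrawal of doxycycline and before any doxycycline. The comparison takes 4 of the 16 RNA sequencing libraries of a time course, 2 from cells at 4 days off and 2 from untreated cells, and covers all 13652 genes in the count files. The cells at 4 days off had been given doxycycline at 0.1 µg/mL for 12 days and were collected 4 days after its removal. The untreated cells were those of day 0. Both groups grew in IMDM with 10% foetal calf serum and interleukin-3, and both were taken by FACS as total viable cells, with no selection on a surface marker. By the series title the schedule first restores PU.1 and then knocks it down again, so untreated cells and cells after withdrawal share the state of low PU.1. The other groups used here for reference are cells after 12 days on doxycycline and cells 8 and 12 days after withdrawal, each with 2 libraries of total viable cells. AML246 is 1 line, so its response may not hold for other leukaemias.

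PU.1, encoded by Spi1, is an ETS family transcription factor that myeloid and B cell development depend on. It binds purine-rich sites and activates genes of granulocyte and macrophage maturation, among them integrin chains, Fc receptors, receptors for colony-stimulating factors and subunits of the phagocyte oxidase. Low PU.1 activity holds myeloid progenitors at an immature stage and contributes to leukaemia in mice. Messenger RNA and protein outlast the factor that induced them by different times, so a cell can carry marks of an earlier PU.1 level after Spi1 itself has returned.

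The libraries at 4 days off held 17972629 and 15594698 counts, against 18011837 and 12962801 counts in untreated cells, and the 16 libraries ranged from 12962801 to 26509803 counts. Mitochondrially encoded genes took 3.59% and 3.01% of counts at 4 days off, against 7.36% and 6.35% in untreated cells. With these genes left out of the totals and the test, 5076 genes were called between the groups, against 5171 with them, and 166 of 166 other named calls were kept. Nothing in the labels tells if replicates A and B came from separate cultures. The p-values then measure only the spread between libraries, which may be technical. Treatment history and days in culture cannot be told apart, because untreated cells of the later days were not analysed here. A lower count in these bulk samples can come from fewer cells of a type or from less RNA per cell, and these cannot be told apart either. Gene levels are CPM, read counts scaled to a common library size with TMM factors, and given for replicate A and then B. Folds are log2 ratios of 4 days off over untreated, with the standard error (SE) of 1 fit across all 16 libraries, and a gene was called at an edgeR quasi-likelihood adjusted p under 0.05.

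Spi1 was back at its untreated level at 4 days off, while Itgam was not. Spi1 (Entrez 20375, chromosome 2, 91082374 to 91115759, GRCm38) had 65.0 and 56.6 CPM at 4 days off, against 66.3 and 56.8 CPM in untreated cells, and the groups overlapped (log2 fold -0.02, SE 0.15, edgeR adjusted p = 0.94). Spi1 averaged 61.5 ± 6.69 CPM in untreated cells and 222 ± 4.72 CPM after 12 days on (mean ± SD, n = 2 libraries each). It averaged 60.8 ± 5.91 CPM at 4 days off, 46.5 ± 2.35 CPM at 8 days off and 46.0 ± 12.5 CPM at 12 days off. Leaving out each library in turn moved the Spi1 fold between -0.12 and 0.10, and it was called in none of these fits. Itgam (Entrez 16409, chromosome 7, 128062640 to 128118491), which encodes the alpha chain of the Mac-1 integrin known as Cd11b, had 57.0 and 82.4 CPM at 4 days off, against 1.41 and 1.77 CPM in untreated cells. Both libraries at 4 days off stood above both untreated libraries, a 44.2-fold difference (log2 fold 5.46, SE 0.24, edgeR adjusted p = 1.8e-09). Itgam averaged 1.59 ± 0.252 CPM in untreated cells, 694 ± 35.3 CPM after 12 days on, 69.7 ± 18.0 CPM at 4 days off, 4.79 ± 0.783 CPM at 8 days off and 1.29 ± 0.301 CPM at 12 days off. Its level at 4 days off was below that after 12 days on (log2 fold -3.32, edgeR adjusted p = 6.4e-09) and above that at 12 days off (log2 fold 5.74, edgeR adjusted p = 1.1e-09). Spi1 was also below its level after 12 days on (log2 fold -1.87, edgeR adjusted p = 4.8e-07) and above that at 12 days off (log2 fold 0.41, edgeR adjusted p = 0.039). Against 8 days off Spi1 was not called (log2 fold 0.39, edgeR adjusted p = 0.075).

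**Figure D1:**
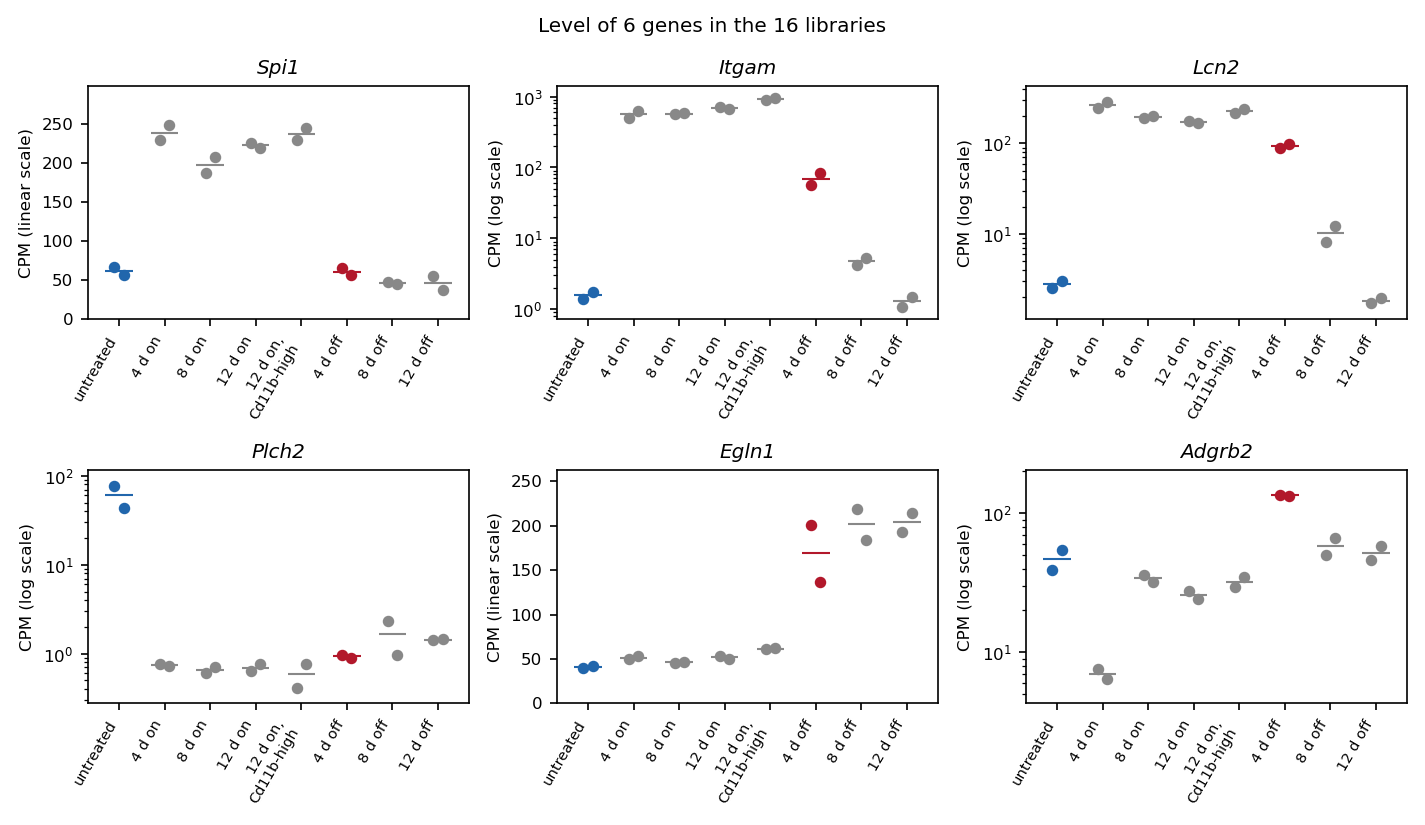
CPM of 6 genes in each of the 16 libraries, over the 8 groups of the course (untreated, 3 times on doxycycline, sorted Cd11b-high cells after 12 days on, and 3 times off), on log axes except Spi1 and Egln1, which have linear axes from 0. Points are libraries and lines are means of 2, with 4 days off in red and untreated in blue. Spi1 at 4 days off lies level with untreated, Itgam and Lcn2 lie between the levels on doxycycline and untreated, Plch2 stays low, Egln1 is high at all 3 times off, and Adgrb2 peaks at 4 days off.

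With Spi1 level, 5171 of 13652 genes were called between 4 days off and untreated, or 37.9%. Of these, 2569 genes were higher (18.8% of all genes) and 2602 were lower (19.1%). Most differences were small: 724 genes were more than 2-fold higher and 654 more than 2-fold lower, and 206 and 148 passed 4-fold. The median log2 fold over all genes was -0.03. The 2 libraries at 4 days off did not overlap the 2 untreated libraries for 5163 of the called genes, beside 71.5% of all genes. The 2 libraries at 4 days off were not equally far from untreated cells. Among genes called higher, 68.2% had more in replicate B than in replicate A, and among genes called lower 68.5% had less in B, beside 49.5% of all genes with more in B. Without replicate B at 4 days off, 3031 genes were called, 1647 higher and 1384 lower. The first principal component of all 16 libraries took 62.5% of the variance. On it untreated libraries lay at -60.2 and -61.6 and those after 12 days on at 53.9 and 51.3. Libraries at 4 days off lay at -18.1 and -4.14, those at 8 days off at -58.3 and -51.5 and those at 12 days off at -87.3 and -68.0.

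**Figure D2:**
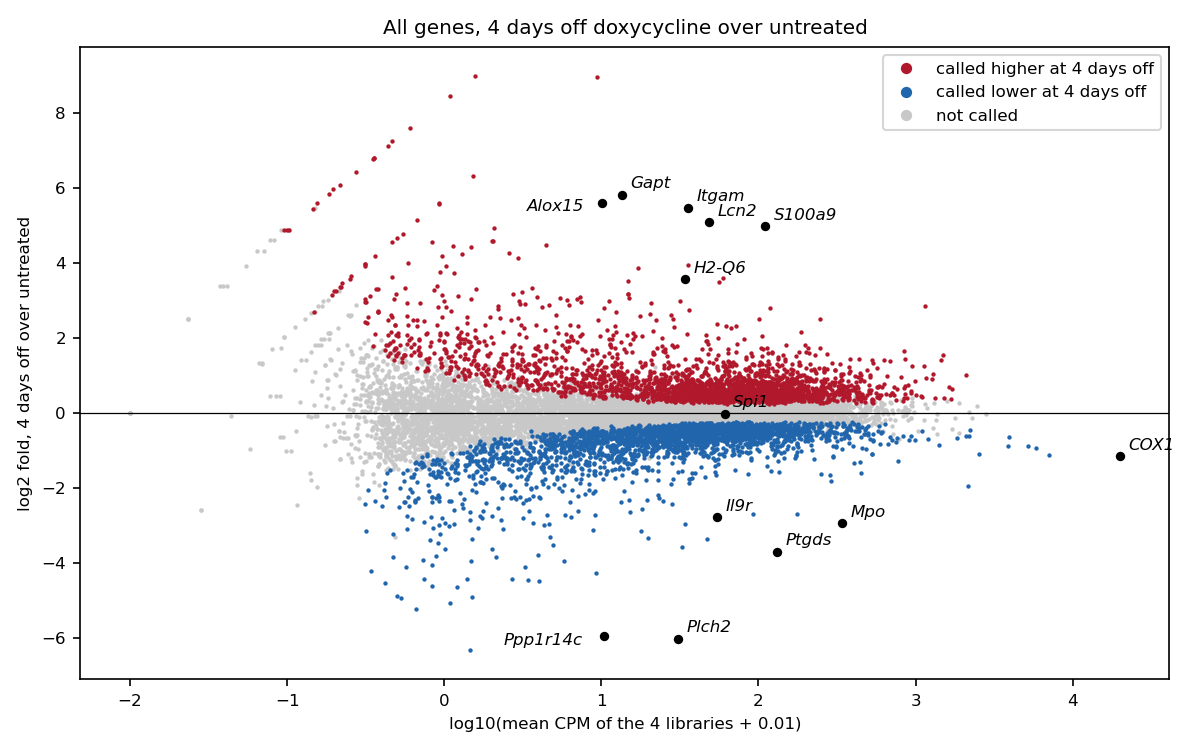
Log2 fold of 4 days off over untreated for each of 13652 genes (vertical axis) against the log10 of its mean CPM over the 4 libraries plus 0.01 (horizontal axis). Red genes were called higher, blue genes lower and grey genes were not called, and the named black points run from Gapt at 5.81 to Plch2 at -6.01, with Spi1 at -0.02.

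Gapt led the rises among genes that averaged 10 CPM or more over the 4 libraries. Gapt, a transmembrane adaptor that binds Grb2, had 20.6 and 32.6 CPM at 4 days off, against 0.707 and 0.148 CPM in untreated cells (log2 fold 5.81, SE 0.36, edgeR adjusted p = 6.3e-08). Alox15, the 12/15-lipoxygenase of eosinophils and macrophages, had 16.5 and 23.2 CPM at 4 days off, against 0.652 and 0.0738 CPM in untreated cells (log2 fold 5.59, SE 0.45, edgeR adjusted p = 1e-06). In both genes the untreated libraries held few reads, 15 in all for Gapt and 13 for Alox15, so the size of the fold is less certain than for Itgam. Lcn2, the iron-sequestering lipocalin of neutrophil granules, had 88.7 and 98.8 CPM at 4 days off, against 2.55 and 3.02 CPM in untreated cells (log2 fold 5.08, SE 0.19, edgeR adjusted p = 7.6e-10). S100a9, a subunit of calprotectin, had 213 and 217 CPM at 4 days off, against 4.19 and 9.81 CPM in untreated cells (log2 fold 4.98, SE 0.30, edgeR adjusted p = 6.2e-08), and its 2 libraries at 4 days off agreed closely. Clec12a, an inhibitory lectin receptor of myeloid cells, had 106 and 114 CPM at 4 days off, against 6.58 and 12.1 CPM in untreated cells (log2 fold 3.58, SE 0.23, edgeR adjusted p = 7e-08). C3, the central complement component, had 88.8 and 115 CPM at 4 days off, against 6.47 and 12.2 CPM in untreated cells (log2 fold 3.47, SE 0.27, edgeR adjusted p = 8.4e-07). Apln, which encodes the secreted peptide apelin, had 34.7 and 19.4 CPM at 4 days off, against 2.07 and 2.73 CPM in untreated cells (log2 fold 3.52, SE 0.33, edgeR adjusted p = 3e-06). The other 4 largest rises were Cstdc5, Serpina1e, H2-Q6 and Klra2, with log2 folds of 3.95, 3.86, 3.56 and 3.18. These 4 belong to families with near-identical copies, and the counting could have split or shared their reads.

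Most of these genes stood below their level after 12 days on doxycycline, but not all. Gapt, Alox15, Itgam, Lcn2, S100a9, Cstdc5, Clec12a and Klra2 were lower at 4 days off than after 12 days on, with log2 folds from -3.98 in Alox15 to -0.77 in S100a9. C3 at 4 days off did not pass the test against 12 days on (log2 fold 0.08, edgeR adjusted p = 0.81). Serpina1e was higher at 4 days off than after 12 days on (log2 fold 0.75, edgeR adjusted p = 0.0039), and so was Apln (log2 fold 3.52, edgeR adjusted p = 1.5e-06). Apln averaged 2.40 ± 0.469 CPM in untreated cells, 2.36 ± 0.400 CPM after 12 days on, 27.0 ± 10.8 CPM at 4 days off, 30.5 ± 5.75 CPM at 8 days off and 39.7 ± 5.52 CPM at 12 days off and was thus high at the times off doxycycline only among these groups. H2-Q6, a class Ib histocompatibility gene, averaged 5.37 ± 1.06 CPM in untreated cells and 53.3 ± 2.88, 62.5 ± 1.66, 38.8 ± 3.76 and 53.7 ± 1.46 CPM after 12 days on and at 4, 8 and 12 days off.

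The largest falls included genes of several surface and enzyme families, and they differed in their levels at later times. Plch2, a phospholipase C of the eta class, had 0.977 and 0.884 CPM at 4 days off, against 77.4 and 43.4 CPM in untreated cells (log2 fold -6.01, SE 0.36, edgeR adjusted p = 5.6e-08). It averaged 0.699 ± 0.0856 CPM after 12 days on and 1.44 ± 0.0252 CPM at 12 days off, and neither differed from 4 days off by the edgeR test (adjusted p = 0.56 and 0.28). Ppp1r14c, an inhibitor of protein phosphatase 1, had 0.272 and 0.379 CPM at 4 days off, against 19.8 and 20.8 CPM in untreated cells (log2 fold -5.95, SE 0.42, edgeR adjusted p = 6.1e-07), and it averaged 5.48 ± 2.32 CPM at 12 days off. Its libraries at 4 days off held 11 reads in all, so the size of its fold is less certain. Ptgds, a prostaglandin D2 synthase, had 21.4 and 16.3 CPM at 4 days off, against 176 and 314 CPM in untreated cells (log2 fold -3.70, SE 0.31, edgeR adjusted p = 2e-06). By 12 days off Ptgds averaged 1944 ± 867 CPM, above its untreated level. Col5a3, a collagen chain, had 6.14 and 3.85 CPM at 4 days off, against 60.7 and 59.4 CPM in untreated cells (log2 fold -3.58, SE 0.21, edgeR adjusted p = 5.1e-08). Muc13, a transmembrane mucin, had 9.23 and 7.45 CPM at 4 days off, against 88.9 and 82.2 CPM in untreated cells (log2 fold -3.35, SE 0.17, edgeR adjusted p = 1e-08). Mpo, the myeloperoxidase of azurophil granules, had 90.5 and 67.4 CPM at 4 days off, against 617 and 586 CPM in untreated cells (log2 fold -2.93, SE 0.19, edgeR adjusted p = 6.2e-08). Mpo was already above its level after 12 days on, 30.3 ± 2.73 CPM (log2 fold 1.38, edgeR adjusted p = 4.6e-05), and still below that at 8 days off, 383 ± 32.2 CPM (log2 fold -2.28, edgeR adjusted p = 1.6e-06). Il9r, the interleukin-9 receptor chain, had 17.9 and 9.79 CPM at 4 days off, against 114 and 76.9 CPM in untreated cells (log2 fold -2.78, SE 0.26, edgeR adjusted p = 3.5e-06). Ptpru, a receptor tyrosine phosphatase, had 57.0 and 37.0 CPM at 4 days off, against 311 and 299 CPM in untreated cells (log2 fold -2.70, SE 0.18, edgeR adjusted p = 6.3e-08). Both had been lower after 12 days on, at 0.784 ± 0.0776 and 5.36 ± 0.224 CPM. Rnase12, Mpzl2 and Cd55 fell by 3.33, 3.15 and 2.96 on the log2 scale. Ppm1l, a protein phosphatase, had 4.72 and 3.66 CPM at 4 days off, against 26.9 and 25.7 CPM in untreated cells (log2 fold -2.64, SE 0.28, edgeR adjusted p = 6.8e-06) and averaged 4.25 ± 0.513 and 3.54 ± 2.22 CPM at 8 and 12 days off, with no difference from 4 days off that passed the edgeR test (adjusted p = 0.99 and 0.54).

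**Figure D3:**
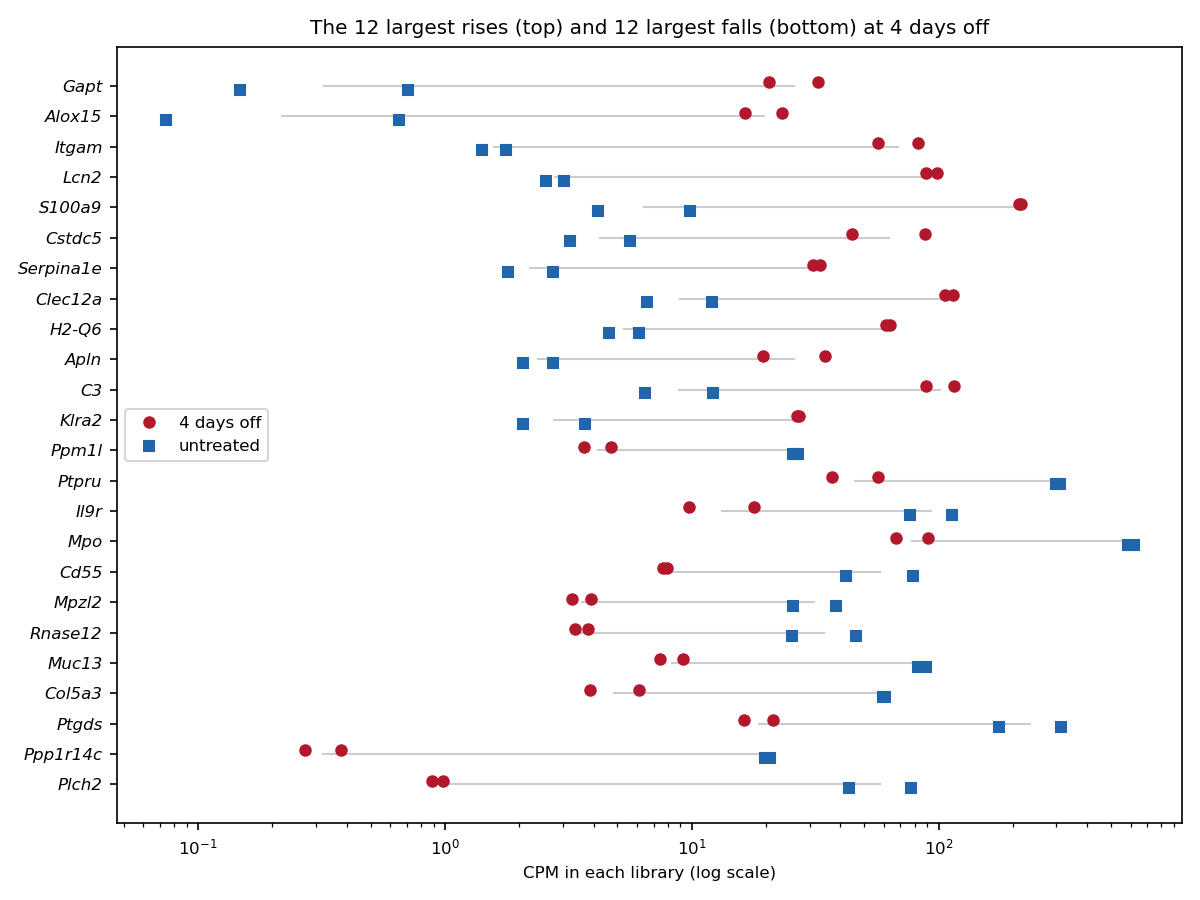
CPM in each library (log axis) of the called genes averaging 10 CPM or more that rose most (12 genes, above) and fell most (12 genes, below). Red circles are the 2 libraries at 4 days off and blue squares the 2 untreated libraries, and in each of the 24 genes the groups do not overlap, since this was part of how they were chosen.

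Promoter windows of genes from both ends of this ranking are shown for a PU.1-type ETS motif, which stood in similar shares of promoters of higher and lower genes. The motif GAGGAAGT, or ACTTCCTC on the other strand, was searched in the 250 bases before the start site of each RefSeq GRCm38.p6 promoter. It stood in 79 of 2692 promoters of genes called higher (2.93%) and in 61 of 2450 promoters of genes called lower (2.49%), beside 335 of 12979 promoters of all genes tested (2.58%). The shorter core GGAAGT, or ACTTCC on the other strand, was in 22.0%, 23.4% and 23.4% of these promoters, and it can overlap the longer motif. Of the 21 named genes at both ends that had a promoter in the table, 3 held the longer motif: Gapt, which rose, and Ppp1r14c and Mpo, which fell. The motif began 112 bases before the promoter's start site in Gapt, read as ACTTCCTC. In Ppp1r14c and Mpo it began 101 and 224 bases before that site, read as GAGGAAGT. A promoter's start site can lie inside the annotated gene. The Gapt and Ppp1r14c windows overlap their genes, which end at 110357220 and start at 3365974, and in Ppp1r14c the motif itself lies in the overlap. The window of Itgam, the marker of the response, is shown beside them and held no match. The windows lie at chr13:110357173-110357422 (minus strand) for Gapt, chr10:3365900-3366149 (plus) for Ppp1r14c, chr11:87793534-87793783 (plus) for Mpo and chr7:128062390-128062639 (plus) for Itgam, each read 5′ to 3′ toward the gene with the motif in capitals.
Gapt: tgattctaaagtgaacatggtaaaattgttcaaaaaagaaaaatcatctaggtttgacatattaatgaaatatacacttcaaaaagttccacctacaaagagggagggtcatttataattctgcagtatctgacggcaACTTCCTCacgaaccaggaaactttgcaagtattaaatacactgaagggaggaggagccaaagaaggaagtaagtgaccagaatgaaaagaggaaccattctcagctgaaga
Ppp1r14c: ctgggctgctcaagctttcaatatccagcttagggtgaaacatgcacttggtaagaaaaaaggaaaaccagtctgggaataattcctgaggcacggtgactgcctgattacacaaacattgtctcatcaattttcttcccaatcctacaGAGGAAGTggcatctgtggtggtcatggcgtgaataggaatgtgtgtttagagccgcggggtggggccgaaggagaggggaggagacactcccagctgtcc
Mpo: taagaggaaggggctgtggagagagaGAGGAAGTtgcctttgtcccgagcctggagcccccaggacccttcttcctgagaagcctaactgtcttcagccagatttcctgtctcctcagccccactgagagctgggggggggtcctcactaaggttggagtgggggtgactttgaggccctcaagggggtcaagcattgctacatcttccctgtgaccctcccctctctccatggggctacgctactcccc
Itgam: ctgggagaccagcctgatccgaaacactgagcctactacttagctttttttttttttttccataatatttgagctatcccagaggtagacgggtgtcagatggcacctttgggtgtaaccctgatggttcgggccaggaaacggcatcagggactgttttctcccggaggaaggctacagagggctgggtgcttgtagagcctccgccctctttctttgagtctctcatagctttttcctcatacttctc
A match is a run of letters and not a measured binding site.

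Genes listed here as PU.1 targets were raised in part. The list was drawn up with earlier results of these data known, and it holds Gapt and Itgam from the largest rises. Of 30 measured, 12 rose and 5 fell, beside 18.8% and 19.1% of all genes. The median log2 fold of the 30 was 0.30, and 13 were not called. Without untreated replicate B or without replicate B at 4 days off, 3 fell rather than 5. Itgam, Gapt and Clec5a rose and Mpo fell. Clec5a, a lectin receptor that signals through Dap12, had 3.31 and 4.55 CPM at 4 days off, against 0.163 and 0.148 CPM in untreated cells (log2 fold 4.59, SE 0.32, edgeR adjusted p = 1.4e-07), and its untreated libraries held 5 reads in all. Against 12 days on, 21 of the 30 were lower and 3 higher at 4 days off, beside 18.8% and 18.0% of all genes. Against 12 days off, 17 of the 30 were higher and 2 lower, beside 23.5% of all genes in each direction.

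Receptors and adaptors of myeloid surface signalling rose in part. The list of Fc receptors and ITAM signalling had 27 measured members. Of these 15 rose and 3 fell (median log2 fold 0.56), beside 18.8% and 19.1% of all genes. Below their level after 12 days on were 18, beside 18.8% of all genes. Tyrobp, which encodes the adaptor Dap12, had 17.7 and 19.8 CPM at 4 days off, against 5.60 and 3.76 CPM in untreated cells (log2 fold 1.98, SE 0.17, edgeR adjusted p = 1.3e-06). Src, a tyrosine kinase, fell, with 0.706 and 0.695 CPM at 4 days off, against 13.1 and 8.56 CPM in untreated cells (log2 fold -3.95, SE 0.32, edgeR adjusted p = 6.8e-07). Ptprc, which encodes the common leukocyte antigen CD45, had 2.17 and 2.08 CPM at 4 days off, against 0.163 and 0.148 CPM in untreated cells (log2 fold 3.72, SE 0.38, edgeR adjusted p = 5.2e-06). CD45 is a defining marker of blood cells, and Ptprc was near 0 in untreated cells and averaged 66.8 ± 1.91 CPM after 12 days on. Of 22 lectin, CD300, Siglec and SIRP receptor genes, 8 rose and 3 fell, beside 18.8% and 19.1% of all genes. The median log2 fold of the 22 was 0.63, or 0.43 when members with no read in a group are set at a floor of 3 counts. Cd300lf, an inhibitory receptor, had 4.07 and 3.66 CPM at 4 days off, against 0.163 and 0.148 CPM in untreated cells (log2 fold 4.58, SE 0.38, edgeR adjusted p = 8.4e-07). The untreated CPM of Cd300lf and Ptprc equalled those of Clec5a, so these folds rest on as few untreated reads. Sirpa, the receptor for CD47, had 169.6 and 182 CPM at 4 days off, against 97.3 and 93.6 CPM in untreated cells (log2 fold 0.88, SE 0.11, edgeR adjusted p = 2.7e-05).

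Of 17 integrin chains, 8 rose and 1 fell, beside 18.8% and 19.1% of all genes. Itgb2, the beta partner of Itgam, had 778 and 804 CPM at 4 days off, against 378 and 316 CPM in untreated cells (log2 fold 1.19, SE 0.14, edgeR adjusted p = 1.7e-05). Itgb7 had 389 and 396 CPM at 4 days off, against 243 and 198 CPM in untreated cells and Itgb4 had 6.90 and 5.68 CPM at 4 days off, against 2.66 and 1.84 CPM in untreated cells (log2 folds 0.83 and 1.46, SE 0.11 and 0.24). Itgb4 was above its level after 12 days on (log2 fold 2.39, edgeR adjusted p = 4.9e-06), unlike Itgb2 (log2 fold -1.25, edgeR adjusted p = 9.5e-06). Among 11 complement and complement receptor genes, 5 rose and 2 fell, with Itgam, Itgb2 and C3 among the rises. Cd55, which protects cells from complement by speeding the decay of the convertases, was among the falls, with 7.66 and 7.96 CPM at 4 days off, against 78.8 and 42.3 CPM in untreated cells (log2 fold -2.96, SE 0.24, edgeR adjusted p = 6.8e-07).

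Granule genes divided by granule type. Of 15 genes of secondary granules and late neutrophil maturation, 12 rose and none fell, beside 18.8% and 19.1% of all genes, and the median log2 fold was 3.27 (2.64 with the floor of 3 counts). Lcn2 and S100a9 were among the rises, with the values above. Ngp, a granule protein of neutrophil precursors, had 14.1 and 23.0 CPM at 4 days off, against 0 and 0.0738 CPM in untreated cells. The counts were 625 and 1, a ratio of 583 at equal depth with a 95% counting interval from 104 to 23065. Padi4, the enzyme that citrullinates histones in neutrophils, had 78.6 and 96.9 CPM at 4 days off, against 22.4 and 21.8 CPM in untreated cells (log2 fold 1.99, SE 0.12, edgeR adjusted p = 6.2e-08). Against 12 days on, 8 of the 15 were lower and 0 higher, beside 18.8% and 18.0% of all genes. Against 12 days off 12 were higher and 0 lower, beside 23.5% of all genes in each direction. The counts of 0 given for the lists were also 0 at an unadjusted p under 0.05 and with DESeq2 and limma-voom, apart from 1 immediate-early gene given below. Azurophil granule genes, which are made at the promyelocyte stage, went mainly the other way: 6 of 11 fell and 1 rose (median log2 fold -0.48). Prtn3 had 146 and 112 CPM at 4 days off, against 365 and 538 CPM in untreated cells (log2 fold -1.81, SE 0.18, edgeR adjusted p = 4.2e-06). Elane had 28.9 and 24.1 CPM at 4 days off, against 61.6 and 97.4 CPM in untreated cells (log2 fold -1.58, SE 0.19, edgeR adjusted p = 2.3e-05), both serine proteases of these granules. Prss57, a protease of the same granules, was the 1 that rose, with 342 and 337 CPM at 4 days off, against 161 and 226 CPM in untreated cells (log2 fold 0.81, SE 0.14, edgeR adjusted p = 0.00048). With RLE factors, library size alone, genes of at least 1 CPM or a replicate block, 2 azurophil granule genes rose. The count was also 2 with DESeq2, with limma-voom and without mitochondrially encoded genes.

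The phagocyte oxidase, the lysosome and the actin cytoskeleton rose in part. Their median log2 folds, 0.55, 0.38 and 0.39, were smaller than that of the secondary granule genes. Of 7 NADPH oxidase subunit genes, 5 rose and 0 fell. The shares of all genes, for this list and the next ones, were 18.8% and 19.1%. Ncf1 had 51.6 and 50.7 CPM at 4 days off, against 23.4 and 24.9 CPM in untreated cells (log2 fold 1.09, SE 0.10, edgeR adjusted p = 2e-06), below the 423 ± 6.37 CPM after 12 days on, and Ncf1 still averaged 42.1 ± 1.49 CPM at 12 days off. Rac2, the GTPase of the oxidase in blood cells, had 512 and 576 CPM at 4 days off, against 282 and 268 CPM in untreated cells (log2 fold 0.98, SE 0.11, edgeR adjusted p = 1.1e-05). Ncf4 had 180.3 and 154 CPM at 4 days off, against 116 and 112 CPM in untreated cells (log2 fold 0.55, SE 0.12, edgeR adjusted p = 0.0018). Of 42 lysosomal genes, 20 rose and 3 fell (median log2 fold 0.38). Grn, which encodes progranulin, had 387 and 429 CPM at 4 days off, against 125 and 153 CPM in untreated cells (log2 fold 1.56, SE 0.14, edgeR adjusted p = 1.6e-06). Man2b1, a lysosomal mannosidase, had 428 and 493 CPM at 4 days off, against 232 and 220.5 CPM in untreated cells (log2 fold 1.02, SE 0.13, edgeR adjusted p = 2.9e-05). Of 41 actin cytoskeleton and migration genes, 24 rose and 4 fell (median log2 fold 0.39). Myo1f, a myosin of neutrophils, had 124 and 133 CPM at 4 days off, against 34.5 and 31.7 CPM in untreated cells (log2 fold 1.96, SE 0.12, edgeR adjusted p = 6.2e-08). Coro1a had 241 and 277 CPM at 4 days off, against 99.0 and 81.3 CPM in untreated cells (log2 fold 1.52, SE 0.12, edgeR adjusted p = 6.8e-07). Lsp1, an actin-binding protein of leukocytes, had 101 reads at 4 days off and 1 read in untreated cells, a ratio of 94.2 at equal depth (95% counting interval 16.5 to 3758). Against 12 days on, 28 lysosomal and 33 actin genes were lower, beside 18.8% of all genes. These 2 counts of rises depend on replicate B at 4 days off: without it, 13 lysosomal and 15 actin genes rose. The 3 lysosomal falls became 1 without untreated replicate A or without replicate A at 4 days off.

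**Figure D4:**
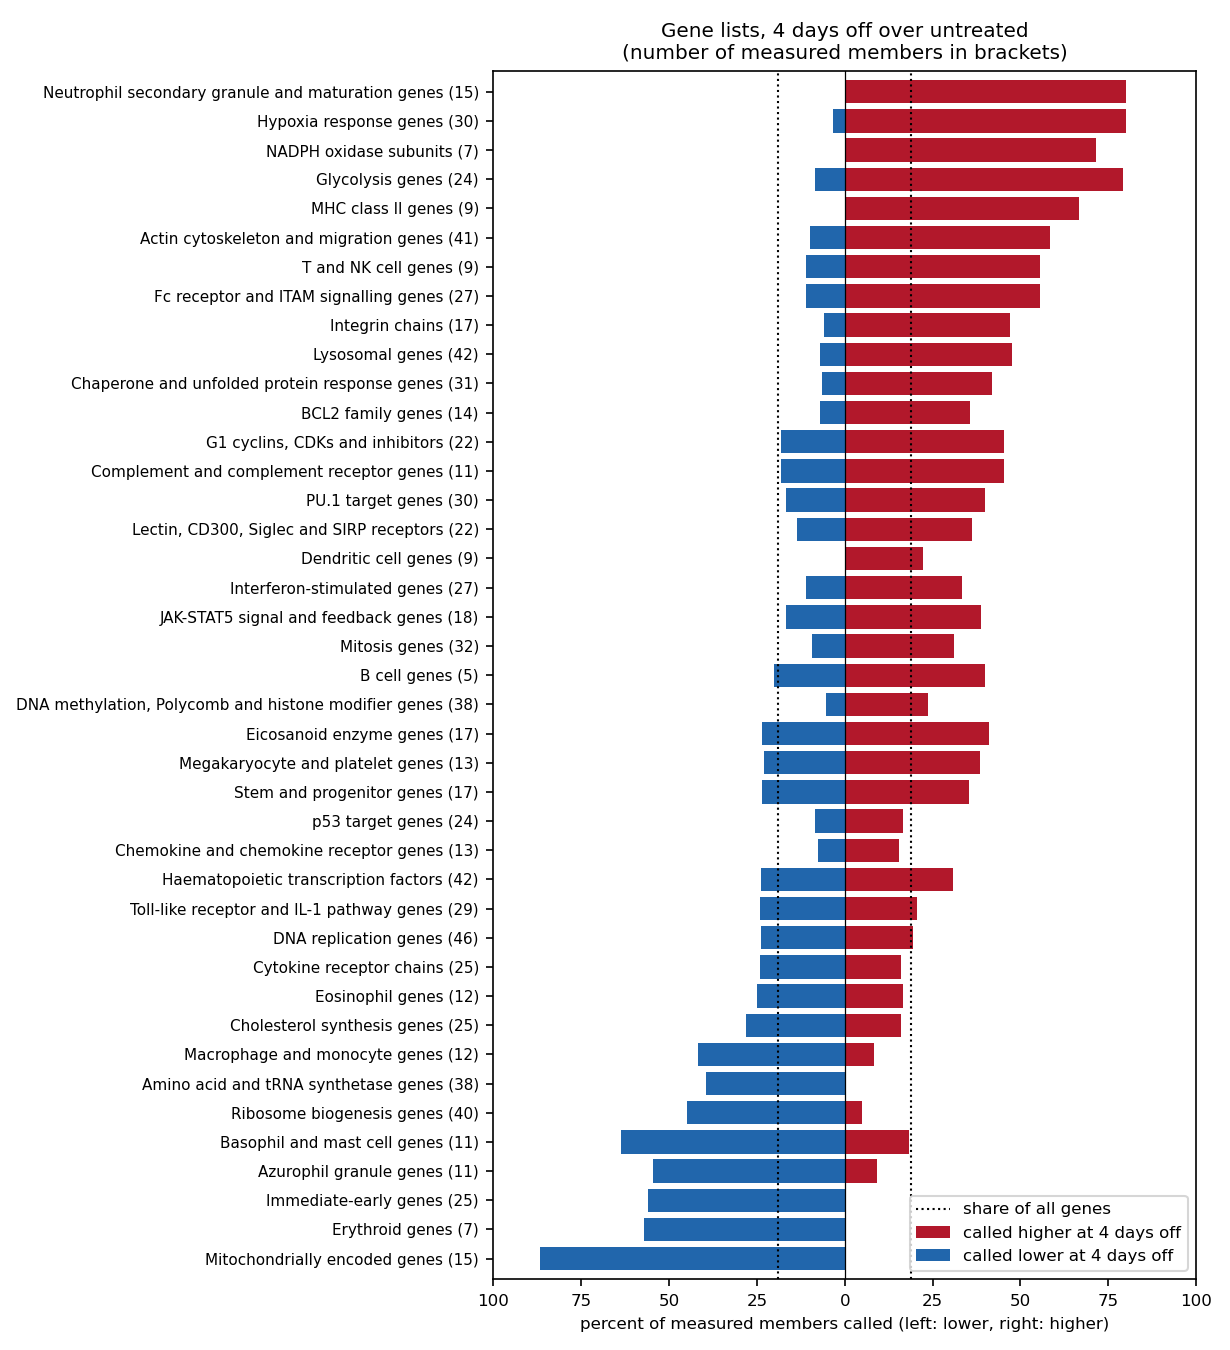
Percent of the measured members of each of 41 gene lists that were called higher (red, to the right) or lower (blue, to the left) at 4 days off than in untreated cells, ordered by the difference of the 2. Dotted lines mark the shares of all genes, 18.8% higher and 19.1% lower, and the numbers in brackets are the measured members. Neutrophil, hypoxia response, NADPH oxidase and glycolysis genes stand at the top and mitochondrially encoded genes at the bottom.

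The most even rise outside the myeloid genes was in glycolysis and the hypoxia response. Of 24 glycolysis genes, 19 rose and 2 fell (median log2 fold 1.26), and of 30 hypoxia response genes 24 rose and 1 fell (median 1.11). Over all genes 18.8% rose and 19.1% fell. Pfkl, a phosphofructokinase, had 421 and 340.2 CPM at 4 days off, against 132 and 95.7 CPM in untreated cells (log2 fold 1.74, SE 0.15, edgeR adjusted p = 1.3e-06). Aldoc, an aldolase, had 139 and 82.9 CPM at 4 days off, against 25.0 and 21.4 CPM in untreated cells (log2 fold 2.26, SE 0.20, edgeR adjusted p = 1.3e-06). Slc16a3, the lactate exporter MCT4, had 519 and 423 CPM at 4 days off, against 211 and 171 CPM in untreated cells (log2 fold 1.30, SE 0.12, edgeR adjusted p = 2.6e-06). Egln1, the prolyl hydroxylase that marks HIF-alpha for degradation and is itself a HIF target, had 201 and 137 CPM at 4 days off, against 40.0 and 42.3 CPM in untreated cells (log2 fold 2.04, SE 0.15, edgeR adjusted p = 2.8e-07). P4ha1, a collagen prolyl hydroxylase, had 315 and 235 CPM at 4 days off, against 92.5 and 86.5 CPM in untreated cells (log2 fold 1.62, SE 0.15, edgeR adjusted p = 2e-06). Slc2a1, the glucose transporter GLUT1, had 248 and 181 CPM at 4 days off, against 88.0 and 77.0 CPM in untreated cells (log2 fold 1.38, SE 0.14, edgeR adjusted p = 5.6e-06). In each of these genes replicate A at 4 days off was the higher of the pair, the reverse of most called rises. The summed level of the hypoxia response genes was 5081 and 3931 CPM at 4 days off, against 2423 and 2460.2 CPM in untreated cells.

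These genes were above the level after 12 days on as well. Against 12 days on, 17 of 24 glycolysis genes and 19 of 30 hypoxia response genes were higher at 4 days off, and 3 and 4 were lower. The shares of all genes were 18.0% higher and 18.8% lower. Against 12 days off, 14 and 11 were lower and 3 in each list were higher, beside 23.5% of all genes in each direction. Egln1 averaged 41.1 ± 1.60 CPM in untreated cells, 51.9 ± 2.48 CPM after 12 days on, 169 ± 45.2 CPM at 4 days off, 201 ± 24.8 CPM at 8 days off and 204 ± 15.4 CPM at 12 days off. Hk1, a hexokinase, had another course, with 206 ± 2.84 CPM in untreated cells and 425 ± 12.8, 558 ± 53.6, 312 ± 2.45 and 248 ± 22.3 CPM after 12 days on and at 4, 8 and 12 days off, highest at 4 days off. With each of the 4 libraries left out in turn, 18 or 19 glycolysis genes and 19 to 23 hypoxia response genes rose.

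Mitochondrially encoded genes were lower as a block. Of 15 measured, 13 fell and 0 rose (median log2 fold -1.12), beside 19.1% and 18.8% of all genes. The summed level of the 15 was 35039.6 and 29639 CPM at 4 days off, against 72013 and 60730.2 CPM in untreated cells. COX1, a subunit of cytochrome c oxidase, had 13771 and 11004 CPM at 4 days off, against 29858 and 25276 CPM in untreated cells (log2 fold -1.15, SE 0.14, edgeR adjusted p = 2.3e-05). CYTB had 4683 and 4187 CPM at 4 days off, against 10735 and 8566 CPM in untreated cells (log2 fold -1.12, SE 0.13, edgeR adjusted p = 1.2e-05), and ND1 and ND4 had log2 folds of -0.93 and -1.09. The 4 encode respiratory chain subunits. CYTB averaged 9650.4 ± 1534 CPM in untreated cells and 3557 ± 111, 4435 ± 351, 2979 ± 17.9 and 2090.0 ± 143 CPM after 12 days on and at 4, 8 and 12 days off. Against 12 days on, 10 of the 15 were higher at 4 days off and 0 lower, beside 18.0% and 18.8% of all genes.

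Genes of growth and protein synthesis fell in part. Of 40 ribosome biogenesis genes, 18 fell and 2 rose (median log2 fold -0.28), beside 19.1% and 18.8% of all genes. Polr1b, a subunit of RNA polymerase I, had 43.6 and 45.3 CPM at 4 days off, against 102 and 88.4 CPM in untreated cells (log2 fold -1.10, SE 0.11, edgeR adjusted p = 3.6e-06). Nop56, a core protein of box C/D particles, had 144 and 137 CPM at 4 days off, against 231 and 215 CPM in untreated cells (log2 fold -0.66, SE 0.10, edgeR adjusted p = 0.0001). Of 38 amino acid and tRNA synthetase genes, 15 fell and 0 rose (median -0.29). Psat1, an enzyme of serine synthesis, had 246 and 268 CPM at 4 days off, against 557 and 713 CPM in untreated cells (log2 fold -1.30, SE 0.11, edgeR adjusted p = 1.4e-06). Phgdh, the first enzyme of that route, had 36.9 and 44.6 CPM at 4 days off, against 70.3 and 85.9 CPM in untreated cells (log2 fold -0.94, SE 0.16, edgeR adjusted p = 0.00034). At 4 days off 15 ribosome biogenesis and 12 amino acid genes were higher than after 12 days on, beside 18.0% of all genes, and 1 of each list was lower. Against 12 days off 35 and 28 were lower, beside 23.5% of all genes. Myc, a transcription factor that drives ribosome production, had 196 and 209 CPM at 4 days off, against 334 and 343 CPM in untreated cells (log2 fold -0.74, SE 0.09, edgeR adjusted p = 3.5e-05), and it did not pass the test against 12 days on (log2 fold 0.15, edgeR adjusted p = 0.23). Of 25 cholesterol synthesis genes, 4 rose and 7 fell, beside 18.8% and 19.1% of all genes. The 7 falls became 4 with RLE factors or DESeq2, and fewer still without replicate B of either group. Of 31 chaperone and unfolded protein response genes, 13 rose and 2 fell, with 7 rises left without untreated replicate B. Canx, the calnexin of the endoplasmic reticulum, had 1012 and 1126 CPM at 4 days off, against 632 and 665 CPM in untreated cells (log2 fold 0.72, SE 0.12, edgeR adjusted p = 0.00041). Hspa1b, which has a near-identical neighbour, had 1.19 and 1.70 CPM at 4 days off, against 4.29 and 5.02 CPM in untreated cells (log2 fold -1.68, SE 0.28, edgeR adjusted p = 0.00031).

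Immediate-early genes, which cells switch on within minutes of a growth signal, fell in part. Of 25 measured, 14 fell and 0 rose, beside 19.1% and 18.8% of all genes, with a median log2 fold of -0.92. At an unadjusted p under 0.05 or with DESeq2, 1 of the 25 rose, and none did with limma-voom. The count was also 1 with RLE factors, with genes of at least 1 CPM, in a fit of the 4 libraries alone and without mitochondrially encoded genes. Junb had 78.2 and 77.3 CPM at 4 days off, against 199 and 179 CPM in untreated cells (log2 fold -1.29, SE 0.20, edgeR adjusted p = 0.00022). Dusp6, a phosphatase that dampens ERK signalling, had 52.3 and 55.3 CPM at 4 days off, against 120.1 and 128 CPM in untreated cells (log2 fold -1.21, SE 0.17, edgeR adjusted p = 7.2e-05). Zfp36, which destabilises messenger RNA, had 19.1 and 19.8 CPM at 4 days off, against 46.1 and 42.7 CPM in untreated cells (log2 fold -1.19, SE 0.20, edgeR adjusted p = 0.00033). Against 12 days on 14 of the immediate-early genes were lower and 4 higher, beside 18.8% and 18.0% of all genes. Against 12 days off 13 were lower and 4 higher, beside 23.5% of all genes in each direction. The genes of cytokine signalling showed no such even movement. Of 25 cytokine receptor chains, 4 rose and 6 fell, close to the shares of all genes, 18.8% and 19.1%, and 8 rose without untreated replicate A. Tgfbr2 had 35.6 and 40.0 CPM at 4 days off, against 19.8 and 16.6 CPM in untreated cells (log2 fold 1.05, SE 0.14, edgeR adjusted p = 3.8e-05). Il1rl1, the interleukin-33 receptor, had 39.4 and 43.9 CPM at 4 days off, against 161 and 96.7 CPM in untreated cells (log2 fold -1.63, SE 0.23, edgeR adjusted p = 0.00011). Of 18 JAK-STAT5 signal and feedback genes, 7 rose and 3 fell, with 4 rises without untreated replicate B. Cish, a feedback inhibitor induced by STAT5, had 80.2 and 72.7 CPM at 4 days off, against 38.8 and 30.8 CPM in untreated cells (log2 fold 1.13, SE 0.13, edgeR adjusted p = 1.1e-05). Jak1 had 193 and 226 CPM at 4 days off, against 116 and 108 CPM in untreated cells (log2 fold 0.90, SE 0.13, edgeR adjusted p = 9.5e-05).

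Class II antigen presentation genes rose in part. Of 9 MHC class II genes, 6 rose and 0 fell (median log2 fold 1.23), beside 18.8% and 19.1% of all genes. H2-Oa had 37.6 and 38.6 CPM at 4 days off, against 19.5 and 12.6 CPM in untreated cells (log2 fold 1.23, SE 0.18, edgeR adjusted p = 0.00011). H2-DMa, which helps load peptides, had 5.38 and 5.62 CPM at 4 days off, against 2.55 and 2.07 CPM in untreated cells (log2 fold 1.23, SE 0.20, edgeR adjusted p = 0.00027). H2-Ab1, a class II beta chain, had 30.2 and 12.4 CPM at 4 days off, against 6.85 and 6.34 CPM in untreated cells (log2 fold 1.69, SE 0.35, edgeR adjusted p = 0.0022), with the 2 libraries at 4 days off far apart, and its call was lost in a fit of the 4 libraries alone. H2-Ab1 went on to 44.6 ± 8.74 and 83.7 ± 29.6 CPM at 8 and 12 days off. Of 27 interferon-stimulated genes, 9 rose and 3 fell, beside 18.8% and 19.1% of all genes. Zbp1, a nucleic acid sensor, had 6.30 and 5.62 CPM at 4 days off, against 1.58 and 2.14 CPM in untreated cells (log2 fold 1.70, SE 0.20, edgeR adjusted p = 1.4e-05). Of 29 Toll-like receptor and interleukin-1 pathway genes, 6 rose and 7 fell, close to the 18.8% and 19.1% of all genes, with 4 falls without untreated replicate B and 3 without replicate B at 4 days off. The median log2 fold of the 29 was 0.10, or -0.01 with the floor of 3 counts. The 4 members given next were taken in order of adjusted p, and all of them rose. None of the 7 falls is among them, and a rise of inhibitors of this pathway as a class was not tested. Il1r2, a decoy receptor, had 13.7 and 7.77 CPM at 4 days off, against 1.36 and 1.33 CPM in untreated cells, a 7.99-fold difference (edgeR adjusted p = 9.7e-07). Il1rn, the interleukin-1 receptor antagonist, had 11.7 and 11.2 CPM at 4 days off, against 3.42 and 3.69 CPM in untreated cells (log2 fold 1.69, SE 0.17, edgeR adjusted p = 4.3e-06). Irak3, an inhibitory kinase, had 111 and 117 CPM at 4 days off, against 52.1 and 49.6 CPM in untreated cells (log2 fold 1.16, SE 0.13, edgeR adjusted p = 1.2e-05). Tlr7, a sensor of single-stranded RNA, had 7.93 and 9.09 CPM at 4 days off, against 1.63 and 1.84 CPM in untreated cells (log2 fold 2.30, SE 0.23, edgeR adjusted p = 4.6e-06). Of 13 chemokine and chemokine receptor genes, 2 rose (Cxcr2 and Ccr1) and 1 fell, below the 18.8% and 19.1% of all genes. Cxcr2 had 5.70 and 5.30 CPM at 4 days off, against 2.39 and 2.51 CPM in untreated cells (log2 fold 1.17, SE 0.20, edgeR adjusted p = 0.00037). Ccr1 had 1.95 and 2.59 CPM at 4 days off, against 0.598 and 1.03 CPM in untreated cells (log2 fold 1.51, SE 0.32, edgeR adjusted p = 0.0021). Of 17 eicosanoid enzyme genes, 7 rose and 4 fell, with 2 falls without replicate B at 4 days off. Alox15 rose and Ptgds fell, as given above, and Alox5ap, which presents arachidonate to 5-lipoxygenase, had 36.3 and 41.1 CPM at 4 days off, against 9.73 and 17.7 CPM in untreated cells (log2 fold 1.52, SE 0.19, edgeR adjusted p = 2.7e-05).

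Markers of other myeloid cells were mixed. Of 12 macrophage and monocyte genes, 1 rose and 5 fell (median log2 fold -0.37), beside 18.8% and 19.1% of all genes. The summed level of the 12 was 1186 and 1058 CPM at 4 days off, against 1418 and 1534 CPM in untreated cells. Most of that sum was Ly6c2, with 969 and 866 CPM at 4 days off, against 1231 and 1334 CPM in untreated cells. Lyz2, the lysozyme of macrophages and neutrophils, was the 1 that rose, with 126 and 114 CPM at 4 days off, against 47.5 and 64.7 CPM in untreated cells (log2 fold 1.10, SE 0.14, edgeR adjusted p = 3.5e-05). Apoe had 43.9 and 31.9 CPM at 4 days off, against 87.6 and 79.1 CPM in untreated cells (log2 fold -1.14, SE 0.22, edgeR adjusted p = 0.00097). Without replicate B at 4 days off the 5 falls became 2, without untreated replicate B they became 3, and without untreated replicate A the rises became 2. Of 11 basophil and mast cell genes, 7 fell and 2 rose, with a summed level of 1814 and 1832 CPM at 4 days off, against 3238 and 2593 CPM in untreated cells. Hdc, which makes histamine, had 103 and 104 CPM at 4 days off, against 288 and 190.2 CPM in untreated cells (log2 fold -1.21, SE 0.16, edgeR adjusted p = 4.7e-05). Cpa3, a mast cell carboxypeptidase, had 1000.2 and 1005 CPM at 4 days off, against 1978 and 1679 CPM in untreated cells (log2 fold -0.87, SE 0.14, edgeR adjusted p = 0.00028). Cma1, a mast cell chymase, had 0.0543 and 0.189 CPM at 4 days off, against 2.61 and 2.66 CPM in untreated cells, with 4 reads in all at 4 days off (log2 fold -4.42, SE 0.69, edgeR adjusted p = 0.0004). Of 12 eosinophil genes, 2 rose and 3 fell, beside 18.8% and 19.1% of all genes, with a median log2 fold of 0.12. The summed level of the 12 was 1186 and 1354 CPM at 4 days off, against 5226 and 2096 CPM in untreated cells. Most of that sum was Epx. Epx, the eosinophil peroxidase, had 818 and 953 CPM at 4 days off, against 4930.4 and 1937 CPM in untreated cells (log2 fold -1.96, SE 0.32, edgeR adjusted p = 0.00042). Its 2 untreated libraries lay far apart, and its call was lost in a fit of the 4 libraries alone. Ear1, an eosinophil ribonuclease with near-identical copies, had 7.33 and 9.28 CPM at 4 days off, against 26.2 and 15.6 CPM in untreated cells (log2 fold -1.35, SE 0.22, edgeR adjusted p = 0.00031). Against 12 days on, all 12 eosinophil genes were lower at 4 days off, beside 18.8% of all genes.

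Among lists of other blood lineages the B cell genes had the lowest summed level. For the counts of these lists, the shares of all genes were 18.8% higher and 19.1% lower. Of 7 measured erythroid genes, 4 fell and 0 rose, with 2 falls left without untreated replicate A. Their summed level was 794 and 804 CPM at 4 days off, against 781 and 798 CPM in untreated cells. Gata1, an erythroid and mast cell transcription factor that opposes PU.1, had 21.7 and 21.9 CPM at 4 days off, against 59.5 and 29.1 CPM in untreated cells (log2 fold -1.03, SE 0.24, edgeR adjusted p = 0.004). Its 2 untreated libraries lay far apart, and its call was lost without untreated replicate A and in a fit of the 4 libraries alone. Car2 had 0.760 and 0.253 CPM at 4 days off, against 3.97 and 3.02 CPM in untreated cells (log2 fold -2.74, SE 0.40, edgeR adjusted p = 0.00012). Of 13 megakaryocyte and platelet genes, 5 rose and 3 fell, with 1 fall without untreated replicate A or without replicate B at 4 days off. Their summed level was 818 and 775 CPM at 4 days off, against 680.3 and 598 CPM in untreated cells. Itga2b had 417 and 388 CPM at 4 days off, against 259.9 and 161 CPM in untreated cells (log2 fold 0.93, SE 0.16, edgeR adjusted p = 0.00036). Gp9, a platelet glycoprotein, had 62 reads at 4 days off and 1 in untreated cells, a ratio of 57.8 at equal depth (95% counting interval 10.0 to 2321). Of 9 T and NK cell genes, 5 rose and 1 fell, with a summed level of 552 and 537 CPM at 4 days off, against 302 and 394 CPM in untreated cells. Prf1, which encodes perforin, had 95.6 and 96.1 CPM at 4 days off, against 48.2 and 41.0 CPM in untreated cells (log2 fold 1.10, SE 0.11, edgeR adjusted p = 4.2e-06). Tcf7 had 39.2 and 47.3 CPM at 4 days off, against 15.4 and 20.1 CPM in untreated cells (log2 fold 1.29, SE 0.17, edgeR adjusted p = 5e-05). Cd28 had 28.2 and 24.4 CPM at 4 days off, against 4.78 and 8.19 CPM in untreated cells (log2 fold 2.05, SE 0.27, edgeR adjusted p = 5e-05). The 5 rises became 3 without replicate A of either group. The 5 B cell genes summed to 13.8 and 13.2 CPM at 4 days off, against 7.50 and 6.42 CPM in untreated cells, and 2 rose and 1 fell. The 9 dendritic cell genes summed to 207 and 199 CPM at 4 days off, against 188 and 191 CPM in untreated cells, and 2 rose and 0 fell: Clec9a had 20 reads and 1 read, a ratio of 18.7 with an interval from 2.98 to 773, and Itgax had 6 reads and 0, at least 1.87-fold higher against a floor of 3 counts over the group. Without untreated replicate A neither of the 2 was called. Where a list had 1 or 2 members called in a direction, leaving out 1 library often moved that count.

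Regulators and surface genes of progenitors split. Their counts stand beside 18.8% of all genes called higher and 19.1% called lower. Of 42 haematopoietic transcription factors, 13 rose and 10 fell, with 6 falls without replicate B at 4 days off. Hhex had 116 and 114 CPM at 4 days off, against 45.6 and 58.4 CPM in untreated cells (log2 fold 1.15, SE 0.12, edgeR adjusted p = 5.2e-06). Runx3 had 126 and 128 CPM at 4 days off, against 69.7 and 58.6 CPM in untreated cells (log2 fold 0.98, SE 0.12, edgeR adjusted p = 2.3e-05). Cebpd had 19.9 and 22.1 CPM at 4 days off, against 42.6 and 49.6 CPM in untreated cells (log2 fold -1.13, SE 0.15, edgeR adjusted p = 4.1e-05). Of 17 stem and progenitor genes, 6 rose and 4 fell. Eng, a TGF-beta coreceptor, had 7.33 and 9.03 CPM at 4 days off, against 1.58 and 0.516 CPM in untreated cells (log2 fold 2.87, SE 0.35, edgeR adjusted p = 2.3e-05). Prom1 had 1.41 and 1.70 CPM at 4 days off, against 4.57 and 4.20 CPM in untreated cells (log2 fold -1.50, SE 0.20, edgeR adjusted p = 5.1e-05).

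Cell cycle genes differed in the size of their folds by list. Log2 folds ran from -0.44 to 0.77 in mitosis genes and from -0.78 to 0.80 in DNA replication genes. In G1 genes they ran from -1.76 to 1.26. Of 32 mitosis genes, 10 rose and 3 fell (median log2 fold 0.15). Top2a had 1005 and 1227 CPM at 4 days off, against 677 and 649 CPM in untreated cells (log2 fold 0.75, SE 0.13, edgeR adjusted p = 0.00037). Plk1, a mitotic kinase, had 88.5 and 94.8 CPM at 4 days off, against 61.5 and 62.9 CPM in untreated cells (log2 fold 0.56, SE 0.12, edgeR adjusted p = 0.0021). The 10 rises became 6 without replicate B at 4 days off or without either untreated library. The 3 falls became 0 without replicate B at 4 days off and 1 without any other of the 4 libraries, and they were also 1 with RLE factors, with DESeq2, with genes of at least 1 CPM, in a fit of the 4 libraries alone and without mitochondrially encoded genes. Of 46 DNA replication genes, 9 rose and 11 fell (median 0.00), close to the 18.8% and 19.1% of all genes, and without replicate B at 4 days off 3 rose and 4 fell. Without untreated replicate A they were 5 and 7, and without untreated replicate B 4 fell. Mcm6, a subunit of the replicative helicase, had 578 and 679 CPM at 4 days off, against 347 and 405 CPM in untreated cells (log2 fold 0.74, SE 0.12, edgeR adjusted p = 0.0003). Orc1 had 27.4 and 28.4 CPM at 4 days off, against 46.2 and 42.4 CPM in untreated cells (log2 fold -0.67, SE 0.11, edgeR adjusted p = 0.00022). Of 22 G1 cyclins, kinases and inhibitors, 10 rose and 4 fell. Ccnd3 had 348 and 370.3 CPM at 4 days off, against 174 and 147 CPM in untreated cells (log2 fold 1.16, SE 0.12, edgeR adjusted p = 6.1e-06). Rb1 had 74.4 and 93.8 CPM at 4 days off, against 37.2 and 33.0 CPM in untreated cells (log2 fold 1.26, SE 0.15, edgeR adjusted p = 1.8e-05). Ccne1 had 13.5 and 16.7 CPM at 4 days off, against 7.12 and 5.68 CPM in untreated cells (log2 fold 1.23, SE 0.19, edgeR adjusted p = 0.00019). Without replicate A at 4 days off 6 of them rose. Without untreated replicate A or replicate B at 4 days off 1 fell, and without untreated replicate B 2 fell.

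Survival and chromatin genes are given beside the 37.9% of all genes that were called. Of 14 BCL2 family genes 5 rose and 1 fell, with 2 rises without untreated replicate B and 3 without replicate B at 4 days off. Bcl2 was the 1 that fell, with 48.3 and 52.2 CPM at 4 days off, against 90.9 and 78.6 CPM in untreated cells (log2 fold -0.76, SE 0.14, edgeR adjusted p = 0.00065). Bik, a death-promoting member, had 9.23 and 7.96 CPM at 4 days off, against 3.75 and 2.58 CPM in untreated cells (log2 fold 1.42, SE 0.23, edgeR adjusted p = 0.0003). Of 24 p53 target genes, 4 rose and 2 fell, beside 18.8% and 19.1% of all genes. Cdkn1a, which encodes the inhibitor p21, had 57.6 and 39.9 CPM at 4 days off, against 30.2 and 24.1 CPM in untreated cells (log2 fold 0.84, SE 0.22, edgeR adjusted p = 0.0082), and its call was lost without untreated replicate B and without replicate A at 4 days off. Gadd45a had 69.2 and 48.7 CPM at 4 days off, against 102 and 109 CPM in untreated cells (log2 fold -0.84, SE 0.17, edgeR adjusted p = 0.0012). The 4 rises became 1 without replicate A at 4 days off and 2 without untreated replicate B. Of 38 genes of DNA methylation, Polycomb and histone modification, 9 rose and 2 fell, with 5 rises without replicate B at 4 days off and 15 in a fit of the 4 libraries alone. Jarid2 had 148 and 139.7 CPM at 4 days off, against 92.7 and 90.4 CPM in untreated cells (log2 fold 0.65, SE 0.14, edgeR adjusted p = 0.0027). Kdm5b had 149 and 131 CPM at 4 days off, against 100.1 and 88.4 CPM in untreated cells (log2 fold 0.57, SE 0.13, edgeR adjusted p = 0.0038).

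Set against the other times, the cells at 4 days off differed from both ends of the course. Of all genes, 5029 were called against 12 days on (36.8%), 3276 against 8 days off (24.0%) and 6426 against 12 days off (47.1%). In fits of the 4 compared libraries alone the order of the first and last was reversed, with 6514 genes called against 12 days on and 2176 against 12 days off. Without either library after 12 days on or without replicate A at 4 days off, 2522 to 3148 genes were called against 12 days on. Leaving out any 1 of the 4 libraries gave 1532 to 2027 against 8 days off. Of the 170 named genes called against untreated, 121 also differed from 12 days on, 113 from 8 days off and 127 from 12 days off by edgeR's test. The comparison of 12 days on with 12 days off shares no library with that of 4 days off and untreated. It called 8917 genes (65.3%), with 4425 higher (32.4%) and 4492 lower (32.9%) after 12 days on. Of the genes higher at 4 days off than in untreated cells, 1766 were also higher after 12 days on than at 12 days off, which is 68.7% of the first list and 39.9% of the second. Of the genes lower at 4 days off, 1579 were lower in both, or 60.7% of the first list and 35.2% of the second. The directions were opposite in 251 genes that were higher at 4 days off (9.77% of those) and in 294 that were lower (11.3%).

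Some genes at 4 days off lay outside the range of all 14 other libraries. Over all genes 239 were highest there and 186 lowest, fewer than in most groups: the untreated libraries had 1581 and 1319, and the groups ranged from 122 to 1581 highest and from 130 to 1319 lowest. Among called genes 141 were highest at 4 days off and 112 lowest, and the 6 of each with the widest gap are given here as a description, since this is how they were chosen. Adgrb2, an adhesion G protein-coupled receptor, had 136 and 132 CPM at 4 days off, against 39.0 and 54.7 CPM in untreated cells. It averaged 46.8 ± 11.1 CPM in untreated cells, 7.03 ± 0.814, 34.0 ± 2.50 and 25.9 ± 2.32 CPM after 4, 8 and 12 days on, 134 ± 2.86 CPM at 4 days off and 58.4 ± 11.8 and 51.7 ± 8.51 CPM at 8 and 12 days off. Podnl1, a leucine-rich matrix protein, had 79.7 and 59.0 CPM at 4 days off, against 28.0 and 26.7 CPM in untreated cells, and Endou, a ribonuclease that cuts at uridines, had 30.5 and 21.5 CPM at 4 days off, against 6.25 and 5.53 CPM in untreated cells. The pattern in these 3 was a low point at 4 days on and a peak at 4 days off. Cemip, which takes part in hyaluronan breakdown, had 27.4 and 27.0 CPM at 4 days off, against 13.4 and 14.1 CPM in untreated cells. Lax1, a membrane adaptor of lymphocyte signalling, had 17.8 and 14.8 CPM at 4 days off, against 6.63 and 8.56 CPM in untreated cells, and Rspo1, which enhances Wnt signalling, had 16.2 and 15.7 CPM at 4 days off, against 10.4 and 10.3 CPM in untreated cells. Lax1 and Rspo1 were at 2.06 ± 0.141 and 4.05 ± 0.458 CPM at 12 days off, below their untreated levels.

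At the low end Tlr4, the receptor for lipopolysaccharide, had 4.72 and 4.04 CPM at 4 days off, against 9.40 and 13.5 CPM in untreated cells. It averaged 11.5 ± 2.90 CPM in untreated cells, 54.0 ± 1.48, 12.1 ± 1.66 and 11.1 ± 0.914 CPM after 4, 8 and 12 days on, 4.38 ± 0.483 CPM at 4 days off and 16.3 ± 0.974 and 12.9 ± 3.81 CPM at 8 and 12 days off. Klf6, a zinc finger transcription factor, had 23.3 and 20.1 CPM at 4 days off, against 34.8 and 36.8 CPM in untreated cells, and averaged 74.6 ± 1.98 CPM after 12 days on and 39.9 ± 4.21 CPM at 12 days off. Both genes were thus below every other library at a single time of the course. Rnf128, an E3 ubiquitin ligase, had 19.8 and 18.1 CPM at 4 days off, against 65.8 and 48.2 CPM in untreated cells. Sgms1, a sphingomyelin synthase, had 3.91 and 4.93 CPM at 4 days off, against 12.2 and 8.19 CPM in untreated cells, Ccdc80, a secreted matrix protein, had 5.81 and 5.94 CPM at 4 days off, against 10.8 and 11.7 CPM in untreated cells, and Lonrf1 had 6.46 and 5.81 CPM at 4 days off, against 12.8 and 10.5 CPM in untreated cells. Without replicate B at 4 days off, 224 genes were highest and 142 lowest, since 1 library must then clear the other 14.

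**Figure D5:**
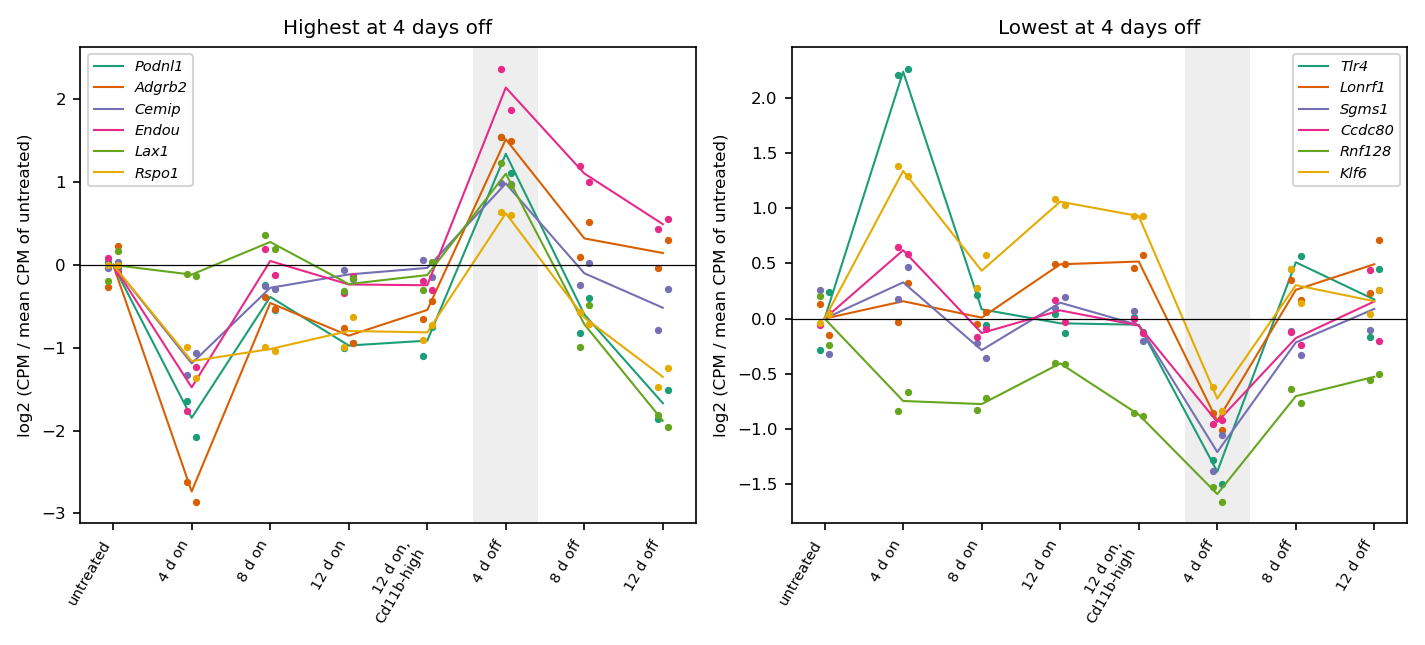
Log2 of CPM over the untreated mean for the 6 genes highest (left) and the 6 lowest (right) at 4 days off, over the 8 groups of the course in time order, with the sorted Cd11b-high cells after 12 days on. Dots are libraries, lines join group means, and the shaded band marks 4 days off, where every line has its highest or lowest point. Adgrb2, Podnl1 and Endou dip at 4 days on before the peak, and Tlr4 and Klf6 peak at 4 days on before the low.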

How the data were processed

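The deposited files hold raw read counts per Entrez gene for 1 library each, as whole numbers, per the file headers. Per the submitters' processing notes the authors used featureCounts, edgeR and limma with mm10; roles and versions, and the aligner, are not given in the sources used here. Each of the 13652 deposited genes exceeds 0.5 CPM in at least 3 libraries. Symbols came from RefSeq's GRCm38.p6 table and named 13216 genes. The genome itself was not used here.

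Libraries were grouped by their titles into 8 groups of 2. Counts were scaled with TMM and fitted with a mean for each group in 1 model of the 16 libraries (edgeR 4.0.16 with limma 3.58.1, under R 4.3.3). Genes were tested with the robust quasi-likelihood test, two-sided, with Benjamini-Hochberg adjustment over 13652 genes per comparison and 5 main comparisons. The same fit also tested 12 days on, 8 days off and 12 days off over untreated, which were not rerun under the alternatives below. The model left 8 residual degrees of freedom, and the common biological variation was 10.9%. The script was tested on simulated counts. CPM are values computed here from the deposited counts and TMM factors. Tables and figures used Python 3.11.15, pandas 2.3.3, scipy 1.17.1 and matplotlib 3.10.9.

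The comparison, the 41 gene lists, the tests and the naming rule were chosen with earlier results of these data known. Spi1 and Itgam were named, with the 12 called genes that rose most and the 12 that fell most. These had to average 10 CPM or more over the 4 libraries, carry a symbol other than that of a predicted gene, and have groups that do not overlap. Each list gave up to 4 called members, taken in order of adjusted p, and the rule added the 6 highest and 6 lowest genes at 4 days off by their gap in log2(CPM + 0.1). Not every named gene is given, and a few are not reported here. Exact 95% counting intervals, and the floor of 3 counts, cover counting error only. Alternatives were RLE factors, library size alone, no filter, a mean of at least 1 CPM, DESeq2 1.42.0, limma-voom, the 4 compared libraries alone, a replicate block, totals without mitochondrially encoded genes, and leaving out each library. Leaving out libraries for the genes highest or lowest at 4 days off was added after seeing the data.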

Additional observations from a re-analysis of the deposited data

Results flagged for a closer look

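Among the named genes, 8 were called in opposite directions against untreated at 4 days off and at 8 days off, and 21 at 4 days off and at 12 days off. Those with at least a 2-fold difference each way, whose difference between the 2 times passed edgeR's test, are given here, apart from a gene not reported. Ptgds was below untreated at 4 days off (log2 fold -3.70) and above it at 8 days off (1.14) and 12 days off (2.99). The direct log2 folds of 4 days off were -4.83 over 8 days off (edgeR adjusted p = 8.9e-07) and -6.69 over 12 days off (edgeR adjusted p = 2.2e-08). S100a9 was above untreated at 4 days off (4.98) and below it at 12 days off (-3.63), with a direct log2 fold of 8.61 (edgeR adjusted p = 6.3e-09). Il1rn went the same way, with a direct log2 fold of 2.85 over 12 days off (edgeR adjusted p = 4.6e-08). Ccne1, the cyclin of S phase entry, had a direct log2 fold of 2.37 (edgeR adjusted p = 5.6e-07). Podnl1 and Lax1, which were highest at 4 days off, had 3.01 and 2.98 (edgeR adjusted p = 8.6e-08 and 1.4e-07). In each of these genes both libraries at 4 days off lay on the side of untreated given here.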

How the results depend on the processing

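The 2 libraries per group limit the precision of every count. Leaving out 1 library gave 3031 to 4238 calls for 4 days off over untreated, with 1384 to 2066 lower. It gave 2522 to 4470 for 4 days off over 12 days on, 1532 to 2027 over 8 days off, and 100 to 224 genes highest at 4 days off. A lone library left in a group is assumed to vary like the other groups. In a fit of the 4 libraries alone, 2176 genes were called for 4 days off over 12 days off, against 6426, and 6514 over 12 days on, against 5029. The cause was not tested. The replicate block gave 5452 calls for the main comparison, 2686 higher and 2766 lower. The labels share only letters. The A minus B difference at 4 days off correlated by 0.04 with that of untreated cells, by -0.06 with 12 days on, by 0.21 with 8 days off and by 0.25 with 12 days off, and by 0.26 at most, with 4 days on. With library size alone the median log2 fold of all genes over 12 days on was 0.15, against 0.04, and 64.6% of its calls were higher, against 48.9%. For 12 days on over 12 days off the median was -0.11, against 0.00. DESeq2 called 4988 genes in the main comparison and limma-voom 5019. The sign of the Spi1 fold over untreated varied, with no call. Of 170 called named genes, 157 were called under every alternative run. Calls of Bak1, Ccrl2, Cd163, Cd79a, Cdkn1a, Clec9a, Epx, Gata1, Gzmb, H2-Ab1, Idh1, Itgax and Klf1 were lost under at least 1. Of 1064 list counts under an alternative, 954 stayed within 1.5 times.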
